A study of Macaca mulatta with 80 samples.

Results

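The dentate gyrus of adult male rhesus monkeys was compared with that of males aged 6 months, across all genes measured on expression arrays. The 2 groups were found by their source labels, DG of adults (4 arrays) and DG at 6 months (4 arrays), and made up 8 of the 80 arrays in the study. Each array held the RNA of 1 region from 1 of 16 monkeys (Macaca mulatta), with 4 animals per age, and the adults were 6 to 12 years old. All layers of the dentate gyrus were microdissected together, from the mid-transverse part of the region and at the middle of the hippocampal body, after brain slices had been kept overnight in an RNA preservative. The monkeys carried no stated genetic change or treatment other than the anaesthetic overdose that ended the experiment. The remaining dentate arrays, from newborns aged 1 day and from animals aged 1 year (4 arrays each), entered the fit as a shared estimate of the spread, and arrays of the entorhinal cortex (EC) and subiculum (Sub) served to compare the change between regions.

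The dentate gyrus receives most of the input from the entorhinal cortex, and its granule cells pass that input on to CA3 through the mossy fibres. Granule cells are unusual among neurons because many are born after birth, from precursors at the inner edge of the cell layer, and each new cell passes through a stage of migration and neurite growth marked by doublecortin (DCX), SOX4, SOX11 and polysialylated NCAM. Mature granule cells carry PROX1 and calbindin (CALB1), and around them the extracellular matrix, myelin and inhibitory circuits continue to mature.

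The labels were checked against granule cell markers. Gastrin-releasing peptide (GRP) lay between 9.62 and 9.92 on the log2 scale in the 6-month DG arrays and between 9.50 and 9.90 in the adult DG arrays, whereas no array of CA1, CA3, EC or Sub at these ages exceeded 7.53. STXBP6, another granule cell marker, was also above every array of the other regions (7.34 to 8.36 at 6 months and 8.28 to 8.69 in adults, with the other regions at or below 7.32). PROX1 and CALB1 did not separate the region: adult PROX1 values of DG (7.01 to 7.48) overlapped those of CA1 (6.97 to 7.49), and CALB1 was as high in CA1. Its probes were made for human sequences, so levels of different genes are not compared here, and each value is a log2 signal of 1 probe set per gene.

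Between 6 months and adulthood 837 of 19775 genes changed (4.23%, limma with Benjamini-Hochberg adjustment over all genes, adjusted p under 0.05). Of these, 304 were higher in adults (1.54% of genes tested) and 533 were lower (2.7%). The median change over all genes was 0.00 on the log2 scale. The arrays of the 2 ages did not overlap for 796 of the 837 genes, beside 11.9% of all genes tested (4.91% with adults above and 7.02% with adults below), and 30 genes changed at least 2-fold. The mean at 1 year lay between the means at 6 months and in adults for 778 of the 837 genes (93%), against 45.2% of all genes. The 837 genes were picked for a difference between the 6-month and adult arrays. That choice in itself raises this share and the share of genes without overlap. Since whole tissue was measured, fewer cells of a type and less RNA per cell cannot be told apart in any of these values. The number of arrays, 4 per age, limits the precision, and the count was lower without adult array 1 (529) or 6-month array 9 (495), 11 (525) or 12 (554).

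An index of RNA integrity moved with age. The GAPDH 3'/5' log2 ratio, the signal of the 3' probe set minus that of the 5' probe set, was 1.00, 1.03, 1.07 and 1.01 in the 6-month arrays and 1.28, 1.43, 1.40 and 1.40 in the adult arrays. No adult array overlapped the 6-month arrays, and the difference was 0.35 (exact two-sided permutation p = 0.0286, the smallest that 70 splits of 8 arrays allow). The actin ratio differed by 0.40 in the same direction (3.03 to 3.36 at 6 months and 3.61 to 3.70 in adults, exact p = 0.0286). With the GAPDH ratio as a covariate 5 genes were called, all lower in adults: SOX11, SOX4, ST8SIA2, TNC and RPRM. Age, as 4 groups, accounted for 75% of the variance of the ratio over the 16 DG arrays, so age and the covariate overlap. The part of this overlap in the calls was not tested.

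**Figure D1:**
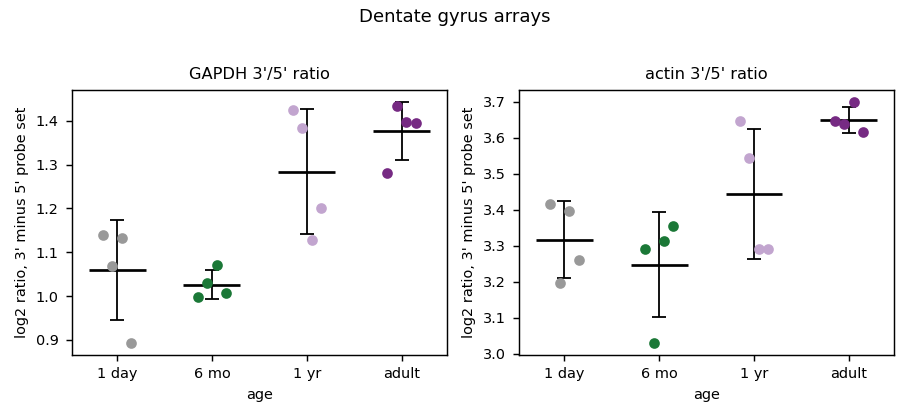
GAPDH and actin 3'/5' log2 ratios (y axis) of the 16 dentate gyrus arrays by age (x axis: 1 day, 6 months, 1 year, adult); points are arrays, horizontal lines are means and bars are SD (n = 4). All 4 adult arrays lie above all 4 arrays at 6 months in both panels, and the 1-year GAPDH values span from 1.13 to 1.43.

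The ratio also varied among the 1-year arrays. Arrays 5 and 6 had GAPDH ratios of 1.43 and 1.38, inside the adult range of 1.28 to 1.43, and arrays 7 and 8 had 1.13 and 1.20. Of the 12 genes with the largest rises to adulthood, 4 were higher in both arrays 5 and 6 than in both arrays 7 and 8, 2 were lower, and 6 were mixed. Of the 12 genes with the largest falls 1 was lower in both arrays 5 and 6, 3 were higher and 8 were mixed. RPL27A was at 8.90 and 8.79 in arrays 5 and 6 and at 8.53 and 8.52 in arrays 7 and 8, with adults at 8.73 to 9.47. PTER and ARGLU1 had the same order, with PTER at 6.88 and 6.33, then 6.07 and 6.01, and ARGLU1 at 9.35 and 8.54, then 8.38 and 8.35. SOX11 had the opposite order, at 7.09 and 7.05 in arrays 5 and 6 and at 6.80 and 6.57 in the others. The part of the ratio in these changes was not tested.

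Genes of newborn granule neurons and neurite outgrowth gave more falls than any other of the 37 lists. Of 39 measured members of that list, 12 fell and 1 rose, or 33.3% called beside 4.23% of all genes, and the median change of the list was -0.27. The mean level over the 39 genes was 9.10 to 9.18 in the 6-month arrays and 8.70 to 8.83 in the adult arrays. The list was chosen with earlier results of these data known, so its direction is a description. Leaving out each array in turn left 11 or 12 members lower and 0 to 2 higher.

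The transcription factors SOX11 and SOX4, which drive the neuronal programme of new granule cells, fell the most. SOX11 was at 7.71, 8.01, 8.05 and 7.23 in the 6-month arrays and at 5.74, 5.50, 5.65 and 5.39 in the adult arrays. Every adult array was more than a log2 unit below every 6-month array, and SOX11 fell by 2.18 ± 0.18 (SE), or 4.53-fold (adjusted p = 2.7e-06). SOX4 was at 9.78, 9.84, 9.70 and 9.57 at 6 months and at 8.12, 7.72, 7.86 and 7.26 in adults. The SOX4 groups were also far apart, and SOX4 fell by 1.98 ± 0.16 (3.96-fold, adjusted p = 2.7e-06). Both genes were higher still in newborns, with SOX11 at 8.66 to 9.35 and SOX4 at 10.56 to 11.21.

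MARCKSL1, an actin-binding protein of growing neurites, was at 10.79, 10.56, 10.42 and 10.48 at 6 months and at 9.06, 8.97, 8.88 and 8.87 in adults. It fell by 1.62 ± 0.13 (adjusted p = 2.7e-06), with the 1-year arrays (9.15 to 9.62) close above the adults. ST8SIA2, the sialyltransferase that puts polysialic acid on NCAM in young neurons, was at 6.54, 6.91, 6.64 and 6.45 at 6 months and at 5.19, 5.13, 5.03 and 4.97 in adults. Its groups did not overlap, and it fell by 1.55 ± 0.11 (adjusted p = 1.83e-06). NNAT, the proteolipid neuronatin of developing brain, was at 10.21, 9.72, 10.18 and 10.21 at 6 months and at 8.67, 8.59, 8.72 and 9.28 in adults, and fell by 1.26 ± 0.18 (adjusted p = 0.00093). The lowest 6-month array was still above the highest adult array.

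DCX, the microtubule protein used as the marker of immature granule cells, had a mean of 8.07 ± 0.13 (SD, n = 4) at 6 months and 6.98 ± 0.21 in adults, and fell by 1.09 ± 0.15 (SE, adjusted p = 0.000831). Of the 5 collapsin response mediators, which carry guidance signals in growth cones, DPYSL3 fell by 0.89, DPYSL5 by 0.60 and CRMP1 by 0.55, whereas DPYSL2 (0.16, adjusted p = 0.307) and DPYSL4 (-0.02, adjusted p = 0.965) were not called. CD24, a surface glycoprotein of immature neurons, fell by 0.83, NREP by 0.80 and the tubulin TUBB2B by 0.59. The 1 member that rose was MAP1B, a microtubule-associated protein of axons, from 11.23 ± 0.09 to 11.65 ± 0.14 (adjusted p = 0.0168). Among the 26 members that were not called, 19 were lower in adults and 7 higher.

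**Figure D2:**
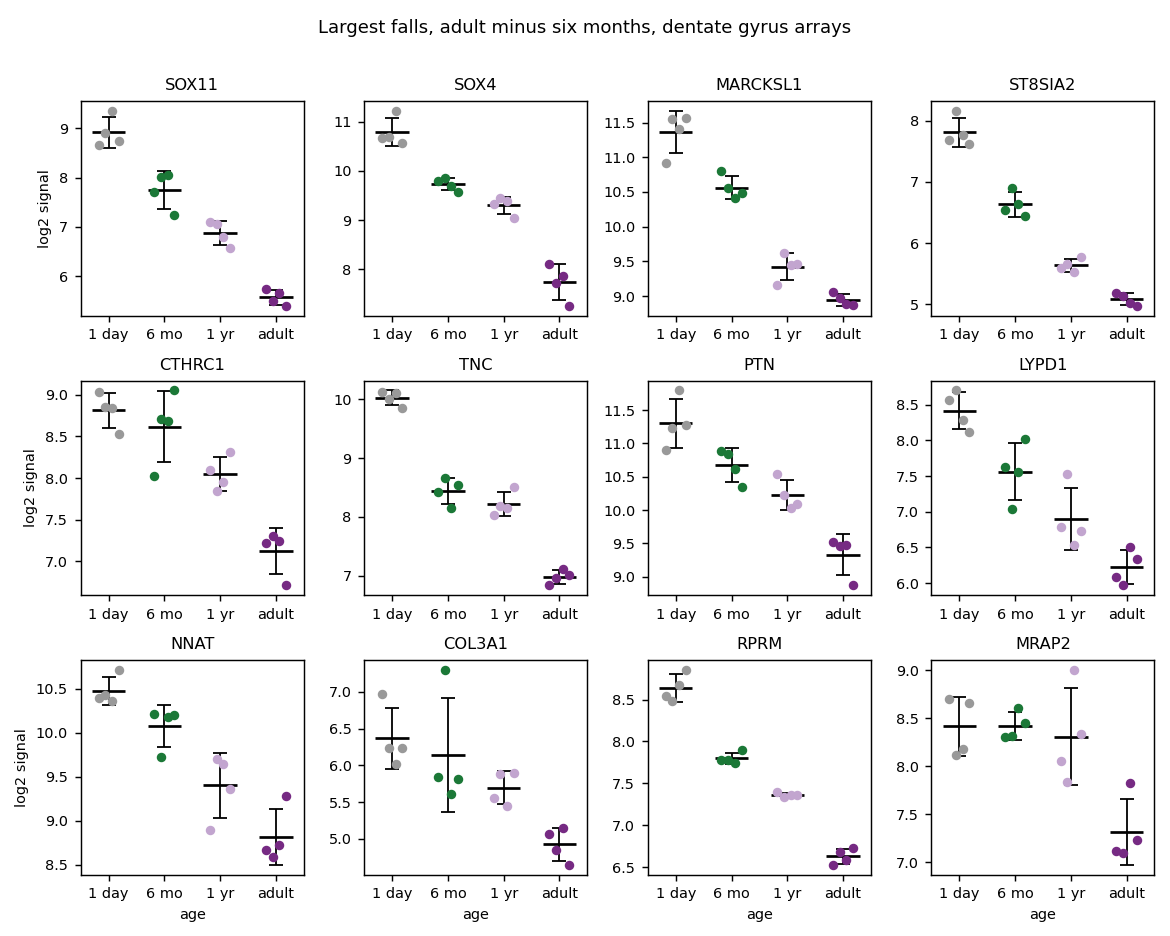
Log2 signal (y axis, own scale in each panel) of the 12 genes with the largest falls in the dentate gyrus by age (x axis: 1 day, 6 months, 1 year, adult); points are arrays, lines are means and bars are SD (n = 4). In every panel except that of NNAT the adult arrays lie below all arrays of the 3 younger ages.

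Stem cell and radial glia genes held 3 falls and no rise among 21 measured members (14.3% called beside 4.23% of all genes), and the list median was -0.24. TNC, the matrix glycoprotein tenascin C of neurogenic niches, was at 8.42, 8.65, 8.14 and 8.55 at 6 months and at 6.84, 6.96, 7.11 and 7.01 in adults. No adult array came within a log2 unit of the 6-month arrays, and TNC fell by 1.46 ± 0.11 (adjusted p = 2.7e-06). FABP7, which carries fatty acids in radial glia, fell by 0.50 ± 0.13 (adjusted p = 0.0383), and the NOTCH effector HES1 fell by 0.33 ± 0.08 (adjusted p = 0.0191). The 2 other probe sets of HES1 moved the opposite way. Both calls were lost without single arrays: FABP7 without adult 1, 3 or 4 or 6-month 9, 11 or 12 (adjusted p 0.0569 to 0.122), and HES1 without adult 1 or 6-month 9, 10 or 12 (adjusted p 0.0518 to 0.0577).

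Of 36 measured cell division genes 0 were called by limma, 6 had an unadjusted p under 0.05 (2 higher, 4 lower) and the median change was -0.02. MKI67, the proliferation antigen, had a mean of 5.32 ± 0.09 at 6 months and 5.21 ± 0.09 in adults, and TOP2A, the topoisomerase of dividing cells, had 4.30 ± 0.09 and 4.21 ± 0.14. Only 8 of the 36 members had a mean signal above the median of all genes. Markers of mature granule cells showed 0 calls among 15 members by limma and 1 unadjusted p under 0.05, with a median of 0.07. That 1 member was STXBP6, which had a mean of 7.77 ± 0.44 at 6 months and 8.54 ± 0.19 in adults (change 0.77 ± 0.23, adjusted p = 0.0726).

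CTHRC1, a secreted glycoprotein that acts on WNT receptors, was at 8.02, 8.71, 8.68 and 9.05 at 6 months and at 7.23, 7.31, 7.25 and 6.71 in adults, and fell by 1.49 ± 0.18 (adjusted p = 0.000368). The heparin-binding growth factor pleiotrophin (PTN) was at 10.89, 10.84, 10.62 and 10.34 at 6 months and at 9.52, 9.45, 9.47 and 8.87 in adults, and fell by 1.34 ± 0.18 (adjusted p = 0.000881). The ages did not overlap for either gene, and the lowest value of both was in adult array 4.

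LYPD1, a membrane-anchored modulator of nicotinic receptors, lay between 7.04 and 8.02 at 6 months and between 5.97 and 6.51 in adults, and fell by 1.34 ± 0.21 (adjusted p = 0.00238). RPRM, which encodes reprimo, a mediator of cell cycle arrest, had the smallest adjusted p of the comparison (8.26e-07). It was at 7.78, 7.78, 7.74 and 7.90 at 6 months and at 6.53, 6.68, 6.59 and 6.73 in adults, and fell by 1.17 ± 0.08. Replicates of RPRM were tight at both ages, and the 1-year arrays (7.34 to 7.40) lay between them. MRAP2, an accessory protein of melanocortin receptors, fell by 1.10 ± 0.22 (adjusted p = 0.00789), and its 1-year arrays (7.84 to 9.0) still spanned the level at 6 months (8.30 to 8.61).

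The type III collagen gene COL3A1 was at 5.85, 7.30, 5.61 and 5.81 at 6 months and at 5.06, 4.85, 5.14 and 4.65 in adults. The groups did not overlap, but 6-month array 10 stood far above the other 3. COL3A1 fell by 1.22 ± 0.29 (adjusted p = 0.0218), and its difference with 1 array left out ranged from -1.40 to -0.83. The call was lost without adult array 2 or 4 (adjusted p 0.0509 to 0.0558) and with the mean of its probe sets, 2 of whose 4 others moved the same way. The 6-month array with high COL3A1 also had the highest mean over the 21 meningeal and fibroblast markers (6.59, against 6.24 to 6.26 in the other 6-month arrays). These markers include COL3A1 itself, which in part raises that mean.

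Of 39 measured genes of the extracellular matrix and perineuronal nets, 7 fell and 0 rose (limma, 17.9% called beside 4.23% of all genes). The list median was -0.07, and the 32 members that were not called split into 16 higher and 16 lower in adults. Beside TNC these were the lecticans BCAN and NCAN, the proteoglycan CSPG5, the protease inhibitors SERPINE2 and TIMP3, and the laminin chain LAMA2. Another 2 members were higher at an unadjusted p under 0.05. NCAN, which encodes neurocan, was at 10.01, 10.02, 9.94 and 9.96 at 6 months and at 9.31, 9.06, 9.31 and 9.36 in adults, and fell by 0.72 ± 0.11 (adjusted p = 0.00166). BCAN (brevican) was at 8.83, 8.75, 8.87 and 8.81 at 6 months and at 7.84, 8.07, 8.01 and 8.07 in adults, and fell by 0.82 ± 0.15 (adjusted p = 0.00555). CSPG5 (neuroglycan C) fell by 0.70 ± 0.10 (10.95 to 11.38, then 10.33 to 10.57, adjusted p = 0.000997). For each of the 3 genes the ages were separate and newborns were higher still. SERPINE2 fell by 0.57, LAMA2 by 0.44 and TIMP3 by 0.42.

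The largest rise was that of HHATL, a homologue of the hedgehog acyltransferase. It was at 5.64, 6.32, 6.00 and 5.54 at 6 months and at 7.17, 7.75, 7.15 and 7.72 in adults, a rise of 1.58 ± 0.18, or 2.98-fold (adjusted p = 0.000138). The 1-year arrays (5.65 to 6.15) lay within the range at 6 months, so the whole rise fell after 1 year. RPL27A, a protein of the large ribosomal subunit with many near-identical copies, rose mostly before 1 year, from 7.46, 7.38, 7.78 and 7.57 at 6 months to 8.52 to 8.90 at 1 year and 9.05, 8.87, 8.73 and 9.47 in adults. The rise to adulthood was 1.48 ± 0.15 (adjusted p = 3.52e-05), and its groups did not overlap. MAB21L2, a developmental gene of the Mab-21 family, was at 4.89, 6.42, 4.67 and 5.18 at 6 months and at 6.86, 6.54, 6.98 and 6.46 in adults. Array 10 at 6 months came close to the adults without reaching them, and the rise was 1.42 ± 0.26 (adjusted p = 0.00543).

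EFNA5, the guidance ligand ephrin-A5, was at 5.82, 5.85, 5.49 and 5.54 at 6 months and at 7.23, 6.69, 6.84 and 6.79 in adults, a rise of 1.21 ± 0.14 (adjusted p = 0.00027). Its ages were separate, with the 1-year arrays in between (6.12 to 6.45). HS6ST2, which sulfates heparan sulfate chains, rose by 1.22 ± 0.29 (7.08 to 7.94 at 6 months, 8.35 to 9.07 in adults, adjusted p = 0.0256), a call lost without adult 1 or 2 or 6-month 11 or 12 (adjusted p 0.0652 to 0.0835). The phosphotriesterase-related gene PTER rose by 1.18 ± 0.18 and was already at 6.01 to 6.88 at 1 year, against 4.98 to 5.52 at 6 months and 6.10 to 6.71 in adults (adjusted p = 0.00181).

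HNRNPH1, an RNA-binding protein of the heterogeneous nuclear ribonucleoprotein family, rose by 1.16 ± 0.16 (8.84 to 9.18 at 6 months, 9.84 to 10.49 in adults, adjusted p = 0.00107). ARGLU1, a splicing modulator, rose by 1.16 ± 0.18 (7.25 to 7.92, then 8.57 to 8.89, adjusted p = 0.00224), and was not called with the mean of its probe sets. LRRC17, a secreted leucine-rich repeat protein, rose by 1.08 ± 0.17 after 1 year (6.33 to 6.68 at 1 year, 7.04 to 8.0 in adults, adjusted p = 0.00192), but its 1 other probe set moved the opposite way.

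The adhesion receptor ADGRG2 rose by 1.07 ± 0.23 (5.90, 7.37, 7.24 and 6.79 at 6 months, 7.73 to 8.12 in adults, adjusted p = 0.0148). Array 9 at 6 months was the lowest, and the call was lost without adult array 1 (adjusted p = 0.0503). SPP1, the secreted phosphoprotein osteopontin, rose by 1.05 ± 0.22 (7.07 to 7.73, then 8.21 to 8.54, adjusted p = 0.012). PLEKHA2, a phosphoinositide-binding adaptor, rose by 1.03 ± 0.16 (9.78 to 10.56, then 11.21 to 11.38, adjusted p = 0.00169). All 12 of these largest rises showed adult arrays above every 6-month array.

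**Figure D3:**
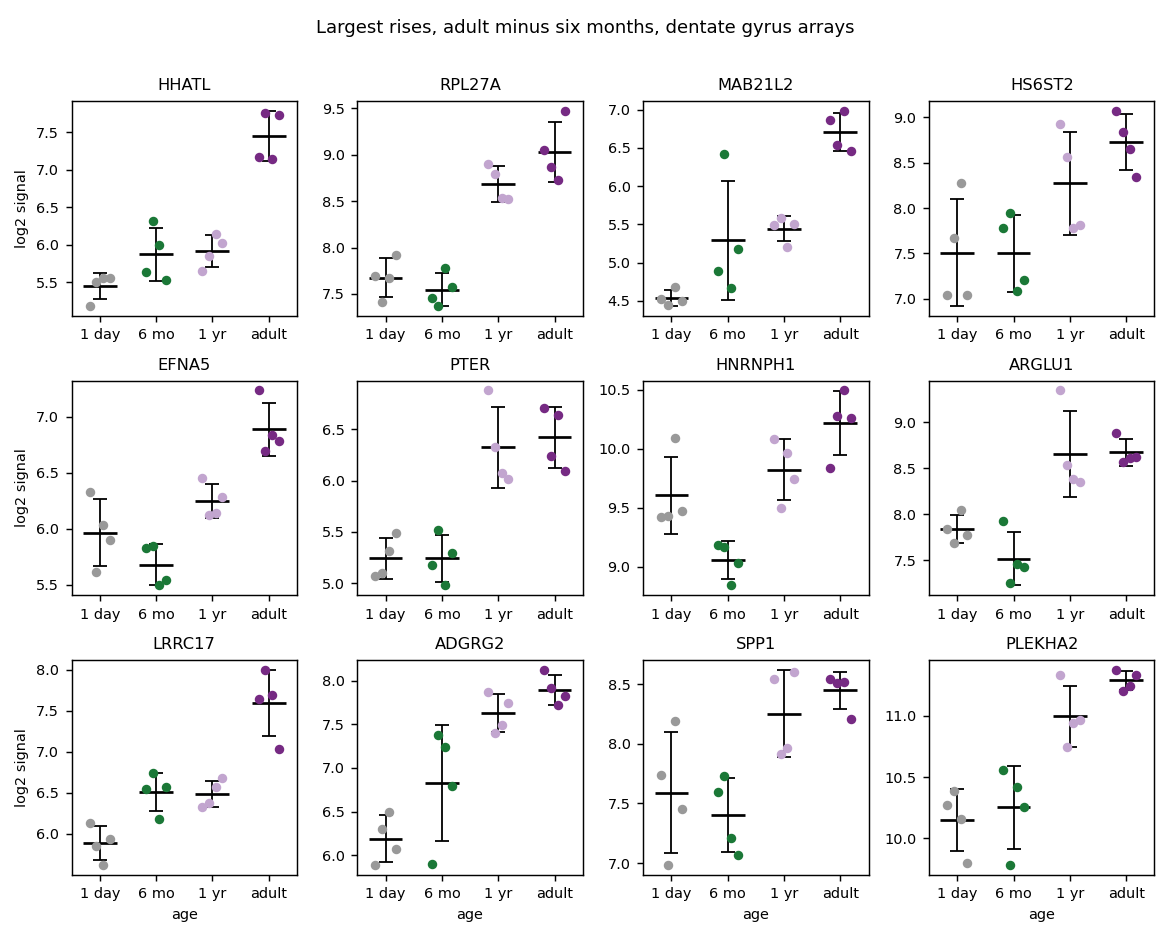
Log2 signal (y axis, own scale in each panel) of the 12 genes with the largest rises in the dentate gyrus by age (x axis: 1 day, 6 months, 1 year, adult); points are arrays, lines are means and bars are SD (n = 4). HHATL and LRRC17 rose after 1 year, whereas RPL27A, PTER and ARGLU1 had reached most of the adult level at 1 year.

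Potassium channel genes gave 3 rises and 0 falls (limma) among 36 measured (8.33% called, beside 1.54% of all genes higher and 4.23% either way), with 9 higher and 3 lower at an unadjusted p under 0.05 and a median of 0.02. KCNIP4, a calcium-binding partner of A-type potassium channels, was at 6.70, 7.07, 6.22 and 6.78 at 6 months and at 7.78, 7.55, 7.91 and 7.43 in adults. The groups were separate, and the rise was 0.97 ± 0.17 (adjusted p = 0.00523). KCNJ9, a subunit of G-protein-gated inward rectifiers, rose by 0.42 (8.94 to 9.18, then 9.41 to 9.58, adjusted p = 0.0273), and the leak channel KCNK1 rose by 0.32 (adjusted p = 0.0474). KCNJ9 lost its call without adult 3 or 4 or 6-month 9 or 11 (adjusted p 0.0585 to 0.0888), and KCNK1 without any one of the 8 arrays (0.0503 to 0.146). Sodium and calcium channels showed 0 calls among 24 by limma, 6 higher and 1 lower at an unadjusted p under 0.05, and a median of 0.13.

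Of 28 genes of synaptic vesicle release, 2 rose and 0 fell (limma, 7.14% called beside 4.23% of all genes). At an unadjusted p under 0.05, 7 were higher and 1 lower, and the median was 0.10. The vesicle SNARE VAMP1 was at 7.43, 7.61, 7.40 and 7.56 at 6 months and at 7.95, 8.25, 7.87 and 8.38 in adults, a rise of 0.61 ± 0.11 (adjusted p = 0.0053) without overlap. It was not called with the mean of its probe sets, 1 of whose 2 others moved the same way. RIMS2, a scaffold of the active zone, rose by 0.52 ± 0.12 (adjusted p = 0.0196), a call lost without adult 1 or 6-month 9 or 10 (adjusted p 0.0591 to 0.0677).

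On the receiving side, 1 of 22 genes of the postsynaptic density was called (4.55%, beside 4.23% of all genes), DLG4, which encodes PSD-95. It fell by 0.42 ± 0.09 (adjusted p = 0.00987), while its 1 other probe set moved the opposite way. Of 16 ionotropic glutamate receptor genes 1 fell (6.25%), the kainate subunit GRIK3 (by 0.49, adjusted p = 0.041). So did 1 of 6 metabotropic ones (16.7%), GRM8 (by 0.28, adjusted p = 0.0329). GABBR1, a subunit of the GABA-B receptor, fell by 0.60 ± 0.12 (10.35 to 10.73 at 6 months, 9.75 to 9.98 in adults, adjusted p = 0.0096). It was the 1 call (7.14%) among 14 genes of GABA receptors and chloride transport. For GRIK3 and GABBR1, too, the 1 other probe set moved the opposite way. GRIK3 lost its call without any one of the 8 arrays (adjusted p 0.0523 to 0.111), and GRM8 without adult 1, 3 or 4 or 6-month 9, 10 or 12 (0.0529 to 0.0974).

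Among 20 immediate early genes, which follow neuronal activity, FOSL2 and FOSB rose and 0 fell (limma, 10.0% called beside 4.23% of all genes). At an unadjusted p under 0.05, 1 was lower, and the median was -0.01. FOSL2 was at 6.98, 7.43, 6.68 and 7.10 at 6 months and at 7.90, 7.74, 7.86 and 7.49 in adults, a rise of 0.70 ± 0.15 (adjusted p = 0.0135), but its 4 other probe sets moved the opposite way. FOSB rose by 0.32 (adjusted p = 0.0351), a call lost without any array other than adult 2 (adjusted p 0.0501 to 0.115). Neuropeptides and neurotrophins gave 0 calls among 23 by limma and 6 at an unadjusted p under 0.05. The interneuron list of 23 genes held 1 rise, of the calcium buffer parvalbumin (PVALB), and 1 fall, of the transcription factor MAF (8.7% called). PVALB was at 6.18, 6.37, 6.25 and 6.56 at 6 months and at 6.46, 7.04, 6.78 and 7.08 in adults, so adult array 1 lay within the younger range. Its rise of 0.50 ± 0.12 (adjusted p = 0.0217) was not called without adult 2 or 4 or 6-month 9 or 11 (adjusted p 0.0551 to 0.0738). MAF fell by 0.44 (adjusted p = 0.046), a call lost without any array other than adult 3 (0.0605 to 0.129).

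Myelin genes held 4 rises and 0 falls among 28 measured (limma, 14.3% called beside 4.23% of all genes), with 11 higher and 1 lower at an unadjusted p under 0.05 and a median of 0.23. The mean over the list was 6.55 to 6.78 at 6 months and 6.85 to 6.92 in adults, so the ages were separate. CNDP1, a carnosine dipeptidase of oligodendrocytes, was at 5.53, 5.60, 5.52 and 5.59 at 6 months and at 6.69, 6.29, 6.46 and 6.30 in adults, a rise of 0.87 ± 0.10 (adjusted p = 0.000123). MYRF, the transcription factor of myelination, rose by 0.42 (adjusted p = 0.0133), although its 2 other probe sets moved the opposite way. TMEM125 rose by 0.45 and ERMN, the cytoskeletal protein ermin of oligodendrocytes, by 0.50. TMEM125 lost its call without adult 2, 3 or 4 or 6-month 10, 11 or 12 (adjusted p 0.0568 to 0.128), and ERMN without any array other than adult 4 (0.0567 to 0.141). MBP, the myelin basic protein, was at 11.1 ± 0.24 and 11.5 ± 0.15 and was not called (change 0.41 ± 0.15, adjusted p = 0.129).

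Of 15 oligodendrocyte precursor genes 2 fell (13.3% called beside 4.23% of all genes), CSPG5 and BCAN, which the matrix list also holds. Astrocytes gave 1 fall among 21 (4.76%), the water channel AQP4, with a list median of -0.20. AQP4 was at 6.18, 6.39, 6.35 and 6.07 at 6 months and at 5.98, 5.42, 5.61 and 5.45 in adults, and fell by 0.63 ± 0.15 (adjusted p = 0.0197). Adult array 1 was close to the 6-month arrays, and the call was lost without adult 2 or 6-month 10 or 11 (adjusted p 0.0605 to 0.0633). GFAP, the astrocyte filament protein, was not called (11.6 ± 0.14 and 11.3 ± 0.26, adjusted p = 0.373).

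Microglial and macrophage genes held 2 falls among 19 (10.5% called beside 4.23% of all genes). LAPTM5, a lysosomal protein of immune cells, was at 8.98, 8.57, 8.74 and 8.69 at 6 months and at 7.97, 8.30, 8.26 and 8.32 in adults, and fell by 0.53 ± 0.11 (adjusted p = 0.00815). CX3CR1, the fractalkine receptor of microglia, fell by 0.70 ± 0.17 (9.83 to 10.23, then 9.05 to 9.61, adjusted p = 0.0263), a call lost without adult 1 or 2 or 6-month 9, 10 or 12 (0.061 to 0.086). The mean over the 19 genes was 6.41 to 6.50 at 6 months and 6.19 to 6.35 in adults, without overlap.

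Meningeal and fibroblast genes gave 3 falls (COL3A1, IGFBP2 and FN1) and 1 rise (the transporter SLC47A1) among 21 (19.0% called beside 4.23% of all genes), and the mean over the list was 6.24 to 6.59 at 6 months and 6.03 to 6.16 in adults. IGFBP2, which binds insulin-like growth factors, fell by 0.64 ± 0.13 (adjusted p = 0.0096), and FN1, the matrix protein fibronectin, by 0.58 ± 0.15 (adjusted p = 0.0329). FN1 was not called without adult 1 or 4 or 6-month 9, 10 or 11 (adjusted p 0.0627 to 0.102), nor in the values as deposited. SLC47A1 rose by 0.73 ± 0.17 (adjusted p = 0.0198), a call lost without adult 1 or 6-month 9 or 10 (0.053 to 0.0643). Their part in the falls of matrix genes was not tested. Endothelium and pericytes (24 genes) and choroid plexus and ependyma (14 genes) gave 0 calls by limma, with 5 and 4 genes at an unadjusted p under 0.05. Markers of mossy and CA pyramidal cells, neurons of the hilus and the adjoining fields, held 3 falls among 21 (DRD2 by 0.39, BOK by 0.34 and POU3F1 by 0.31) and 0 rises by limma. That was 14.3% called beside 4.23% of all genes, with 2 higher at an unadjusted p under 0.05. POU3F1 lost its call without adult 1, 2 or 3 or 6-month 10, 11 or 12 (0.0593 to 0.139).

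**Figure D4:**
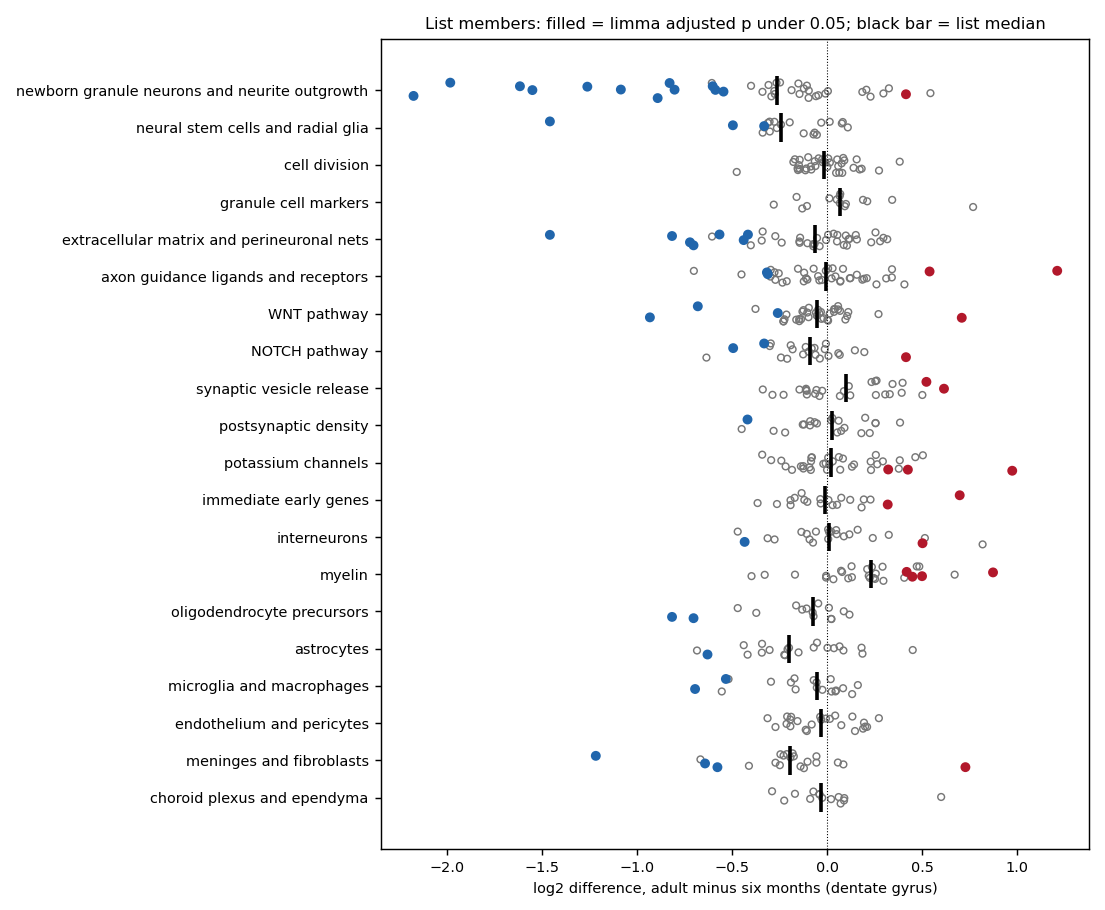
Log2 difference, adult minus 6 months (x axis), of the measured members of 20 gene lists (rows) in the dentate gyrus; filled points are genes with a limma adjusted p under 0.05, open points the rest, and black bars are list medians. The list of newborn granule neurons and neurite outgrowth holds 12 falls and 1 rise, and the myelin list holds 4 rises.

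In the WNT pathway, 3 of 39 genes fell and 1 rose (10.3% called beside 4.23% of all genes). The ligand WNT5A was at 6.57, 7.04, 6.92 and 6.42 at 6 months and at 5.66, 5.51, 5.84 and 6.20 in adults, and fell by 0.93 ± 0.20 (adjusted p = 0.0143). The secreted inhibitor WIF1 fell by 0.68 ± 0.11 (9.32 to 9.50, then 8.61 to 8.98, adjusted p = 0.00236), and the 1-year arrays (9.29 to 9.79) were still at the 6-month level. The nuclear effector LEF1 fell by 0.26 (adjusted p = 0.0232), and the receptor FZD7 rose by 0.71 ± 0.18 (adjusted p = 0.0321), with its 1 other probe set moving the opposite way. LEF1 lost its call without adult 1 or 2 or 6-month 9 or 10 (0.0537 to 0.0733), and FZD7 without adult 1 or 6-month 9, 10 or 11 (0.0643 to 0.106).

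Of 24 NOTCH pathway genes, the ligand JAG1 rose and the effectors HES1 and HES6 fell (12.5% called beside 4.23% of all genes). JAG1 was at 6.66, 6.66, 6.64 and 6.66 at 6 months and at 6.98, 7.08, 7.24 and 6.97 in adults, a rise of 0.41 ± 0.09 (adjusted p = 0.0114), though not called with the mean of its probe sets. HES6 fell by 0.50 ± 0.09 (6.45 to 6.68, then 5.87 to 6.16, adjusted p = 0.00566). Among 33 genes of the BMP and TGF beta pathways 6.06% were called. The effector SMAD3 rose by 0.42 ± 0.09 (adjusted p = 0.0186) and the ligand TGFB1 fell by 0.30 ± 0.07 (adjusted p = 0.0289). SMAD3 lost its call without adult 1 or 3 or 6-month 10 or 11 (0.0505 to 0.0626), and TGFB1 without adult 1 or 4 or 6-month 9, 10 or 12 (0.0515 to 0.0919). Neither was called with the mean of its probe sets. Of 13 genes of the insulin-like growth factor system, IGFBP2 alone was called (7.69%).

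Axon guidance genes gave 2 rises and 2 falls among 41 measured (limma, 9.76% called beside 4.23% of all genes). At an unadjusted p under 0.05, 5 were higher and 9 lower, and the median was -0.01. Beside EFNA5, the netrin receptor UNC5D rose by 0.54 ± 0.12 (adjusted p = 0.02). The ligand SEMA3F fell by 0.32 ± 0.07 (adjusted p = 0.0163) and the semaphorin receptor PLXNB1 by 0.31 ± 0.08 (adjusted p = 0.0378). UNC5D lost its call without adult 1 or 3 or 6-month 9, 11 or 12 (0.0582 to 0.0706), SEMA3F without adult 1 or 6-month 11 (0.0538 to 0.0552), and PLXNB1 without any one of the 8 arrays (0.0567 to 0.104).

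Oxidative phosphorylation gave 1 call among 41 (2.44%, beside 4.23% of all genes), the rise of the succinate dehydrogenase subunit SDHA by 0.40 (adjusted p = 0.0285). Cholesterol synthesis gave 2 falls among 18 (11.1%), MVD by 0.44 (adjusted p = 0.00596) and TM7SF2 by 0.60 (adjusted p = 0.0337). Ribosomal proteins, a family with many near-identical copies, gave 1 rise (RPS7 by 0.30) and 2 falls (RPS19 by 0.42 and RPL38 by 0.42) among 37 (8.11% called). RPL38 turned to a rise of 0.75 with the mean of its probe sets. SDHA lost its call without adult 2, 3 or 4 or 6-month 9, 10 or 11 (0.0532 to 0.0841), TM7SF2 without any one of the 8 arrays (0.0543 to 0.0868) and RPS7 without adult 3 or 6-month 10 or 12 (0.0567 to 0.0672). RPS19 lost it without adult 1 or 3 or 6-month 9, 11 or 12 (0.0566 to 0.0879), and RPL38 without any array other than adult 2 (0.0567 to 0.115). Heat shock proteins (14 genes) and iron handling (11 genes) gave 0 calls by limma, with 3 and 0 genes at an unadjusted p under 0.05.

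Of 36 chromatin regulators 11.1% were called, beside 4.23% of all genes. The high mobility group genes HMGA1 and HMGN2 fell, by 0.44 ± 0.09 (adjusted p = 0.00889) and 0.39 ± 0.10 (adjusted p = 0.0351), and ARID1B and MBD1 rose, by 0.53 ± 0.12 (adjusted p = 0.0182) and 0.27 ± 0.07 (adjusted p = 0.0376). HMGA1 was tight at 6 months (7.62 to 7.67) and separate from the adults (7.11 to 7.33). HMGN2 lost its call without adult 1 or 2 or 6-month 9, 11 or 12 (0.0623 to 0.11), ARID1B without adult 1 or 6-month 10 or 11 (0.0515 to 0.0582) and MBD1 without adult 2, 3 or 4 or 6-month 9, 10 or 11 (0.0574 to 0.118). With the mean of their probe sets ARID1B and MBD1 were not called. Of their other probe sets, 3 of 6 and 2 of 4 moved the same way. Complement and MHC genes gave 1 fall among 32 (3.12%), complement factor CFB by 0.43 ± 0.06 (adjusted p = 0.00139). Interferon response genes gave 1 rise among 25 (4.0%), OAS1 by 0.42 ± 0.09 (adjusted p = 0.0143).

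Among 22 candidate genes for schizophrenia, 1 rose and 3 fell (18.2% called beside 4.23% of all genes). DTNBP1, which encodes dysbindin, was at 8.05, 7.71, 8.24 and 8.35 at 6 months and at 8.63, 8.98, 8.75 and 8.89 in adults, a rise of 0.73 ± 0.16 (adjusted p = 0.0133) without overlap. TCF4, a transcription factor of neuronal development, was at 10.34, 10.57, 10.49 and 10.23 at 6 months and at 9.97, 9.62, 9.75 and 9.92 in adults, and fell by 0.59 ± 0.10 (adjusted p = 0.00427), and was not called with the mean of its probe sets. The dopamine receptor DRD2 fell by 0.39 ± 0.07 (adjusted p = 0.00438). The calcineurin subunit PPP3CC fell by 0.37 ± 0.09 (adjusted p = 0.0217), a call lost without adult 1 or 6-month 9 or 10 (0.0541 to 0.0725). It was not called with the mean of its probe sets, 1 of whose 4 others moved the same way.

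The 1-year arrays divide the interval. From 6 months to 1 year 16 genes were called (0.0809%), 9 higher (0.0455%) and 7 lower (0.0354%; 69.2% higher in the values as deposited and 75% after median centring, against 56.2%), and from 1 year to adulthood 42 (0.212%), 24 higher (0.121%) and 18 lower (0.091%). The steps share arrays with each other and with the whole interval, so their values are set side by side only. MARCKSL1 fell by 1.14 in the first step (adjusted p = 0.00133) and by 0.48 in the second (adjusted p = 0.175), and ST8SIA2 by 0.99 (adjusted p = 0.00133) and 0.56 (adjusted p = 0.0522). The first difference of SOX4 was -0.42 (adjusted p = 0.43), and SOX4 fell by 1.56 in the second (adjusted p = 0.000267). TNC differed by -0.22 in the first step (adjusted p = 0.614) and fell by 1.24 in the second (adjusted p = 9.79e-05). RPRM fell in both steps, by 0.43 (adjusted p = 0.0475) and 0.73 (adjusted p = 0.000289). SOX11 differed by -0.87 in the first step (adjusted p = 0.0923) and fell by 1.31 in the second (adjusted p = 0.00244). Both counts moved when single arrays were left out. The first was 5 without 1-year 6 or 6-month 11, 6 without 6-month 9 or 10 and 9 without 6-month 12, and the second was 105 without 1-year 5, 26 without 1-year 6, 21 without 1-year 7, 18 without 1-year 8, 20 without adult 2 and 24 without adult 4.

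Whether the changes differed from those in the entorhinal cortex and subiculum was tested on 1 value per number of the array titles, the DG value minus the mean of EC and Sub with that number. By this test 537 genes differed (2.72%), 207 with the DG change above (1.05%) and 330 with it below (1.67%). The share above was 38.5%, and it was 48.2% in the values as deposited and 54.7% after centring arrays on their medians. Without pairing by number 321 genes differed, with EC alone 144 and with Sub alone 650. Within EC itself 293 genes changed over the interval and within Sub 436. Of the EC list 52 genes (17.7%) were also in the DG list, where they were 6.21%, and 50 of these had the same direction. Of the Sub list 55 genes (12.6%, and 6.57% of the DG list) were shared, 51 in the same direction. The GAPDH ratio, which did not overlap between the ages in DG, was 1.25 to 1.64 at 6 months and 1.29 to 1.69 in adults in EC. In Sub it was 1.42 to 1.61 at 6 months. Its part in the differences between regions was not tested. CA1 and CA3 were left out of this comparison because their RNA quality differs with age. One adult Sub array, number 4, had a GAPDH ratio of 2.98, against 1.10 to 1.41 in the others, and 344 genes differed without that number. The count was also lower without number 2 (294), 9 (161), 11 (225) or 12 (306).

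Of the 39 genes of newborn granule neurons and neurite outgrowth, the DG change was below that of EC and Sub for 10 and above it for 2 (1.67% and 1.05% of all genes). The list median of this difference was -0.01, and the median change was -0.27 in DG, -0.23 in EC and -0.20 in Sub. ST8SIA2 fell in EC by 0.94 (adjusted p = 0.00284) and in Sub by 0.56 (adjusted p = 0.0271), and SOX4 fell in Sub by 1.53 (adjusted p = 0.000149). SOX11 fell by 2.18 in DG, whereas the difference was -0.21 ± 0.16 in EC (adjusted p = 0.699) and SOX11 fell by 0.70 ± 0.16 in Sub (adjusted p = 0.034). The difference of the changes was -1.73 (adjusted p = 0.000283). MRAP2 and PTN differed by -1.38 (adjusted p = 0.00358) and -1.25 (adjusted p = 0.00431). TNC fell in Sub by 1.47 ± 0.17 (adjusted p = 0.000222). SPP1 and PLEKHA2 rose in all 3 regions: SPP1 by 1.18 in EC and 1.60 in Sub, and PLEKHA2 by 1.41 and 0.99.

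HHATL showed the largest difference upward, 1.56 (adjusted p = 0.00358), with a change of -0.30 ± 0.19 in EC and 0.34 ± 0.22 in Sub (adjusted p 0.572 and 0.464). MAB21L2 differed by 1.31 (adjusted p = 0.0126), with 0.09 ± 0.11 in EC and 0.13 ± 0.10 in Sub, and was not called without number 9 (adjusted p = 0.0566). ADGRG2 differed by 1.30 (adjusted p = 0.015), with -0.41 ± 0.19 in EC and -0.04 ± 0.10 in Sub. PENK, the enkephalin precursor, differed by 1.33 (adjusted p = 0.00893), although its changes within a region were not called: 0.64 ± 0.24 in DG (adjusted p = 0.14), -0.66 ± 0.23 in EC and -0.72 ± 0.29 in Sub. The difference of PENK was not called against EC alone.

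Downward, ST18, a zinc finger factor of oligodendrocytes, differed by -1.49 (adjusted p = 0.0102). It was at -0.63 ± 0.24 in DG (adjusted p = 0.159) and rose by 0.90 in EC and 0.82 in Sub. It was not called with the mean of its probe sets. CDC42BPA, a kinase acting on the actin skeleton, differed by -1.56 (adjusted p = 0.0115), with -0.95 ± 0.29 in DG (adjusted p = 0.0739), 0.07 in EC and a rise of 1.15 in Sub, and was not called against EC alone. The long non-coding RNA MALAT1 had the widest spread: 11.43, 11.34, 11.14 and 10.92 at 6 months and 9.53, 5.48, 6.89 and 10.47 in adults. Adult arrays 2 and 3 were far below arrays 1 and 4, and the DG difference of -3.11 ± 0.86 was not called (adjusted p = 0.051). The difference from EC and Sub was -3.55 (adjusted p = 0.0294), with -1.25 ± 0.43 in EC and 2.13 ± 0.67 in Sub, neither of them called. That difference was lost without number 2, 3, 9, 11 or 12 (adjusted p 0.0647 to 0.0974). It was also not called against EC alone, with a trended robust prior or with the mean of the probe sets. Of the 11 other probe sets of MALAT1, 7 moved the same way in DG.

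**Figure D5:**
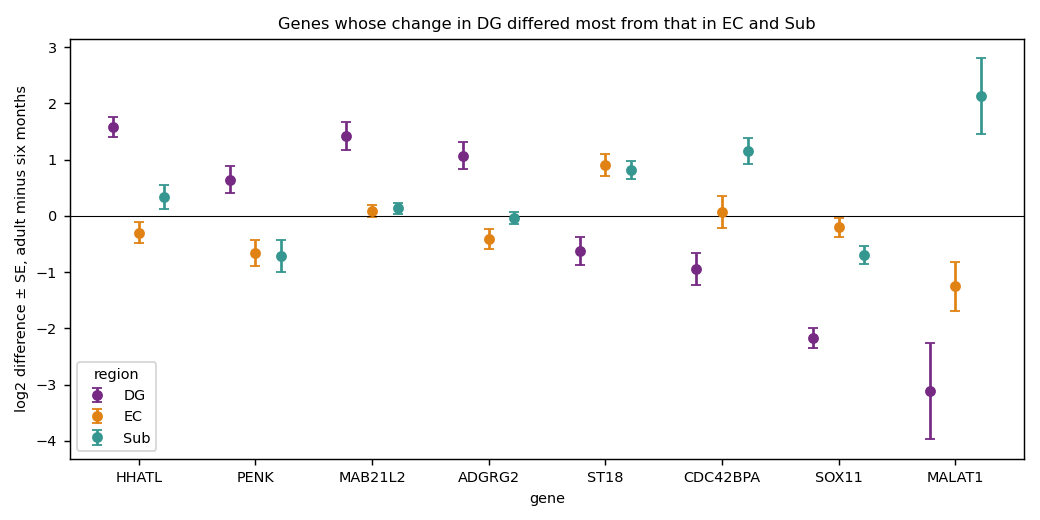
Log2 difference, adult minus 6 months (y axis, point ± SE of the limma contrast), in DG, EC and Sub for the 8 genes (x axis) whose DG change differed most from that of EC and Sub. HHATL, MAB21L2 and ADGRG2 rose in DG by 1.58, 1.42 and 1.07, beside -0.30, 0.09 and -0.41 in EC and 0.34, 0.13 and -0.04 in Sub, and SOX11 fell by 2.18 in DG and by 0.70 in Sub.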

How the data were processed

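Deposited values are log2 signals, made by the authors, for 54675 probe sets on 80 arrays. Per the labels' protocols, total RNA was extracted with Trizol and labelled with biotin in a two-cycle protocol. How probes were summarised, and whether arrays were scaled, is not given in the sources used here. Array quartiles spread over up to 0.12, above the limit of 0.05, so all arrays were quantile normalized in limma 3.58.1 (R 4.3.3). Of the probe sets, 41091 had 1 gene symbol in the platform table, 1801 several and 11721 none, and 62 were controls. The probe set with the highest mean over 80 arrays stood for each of 19775 genes.

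The 16 DG arrays were fitted by age with lmFit and eBayes, with p-values adjusted over all genes. The SE is that of the contrast. The groups hold separate animals, so the test is unpaired. Titles of EC, Sub and DG arrays share numbers that the labels do not call animals. Same-numbered arrays had a mean correlation of 0.118, and 26 of 48 such pairs were over 0.1. For pairs with other numbers of the same age the mean was -0.0387, and 21 of 144 were over 0.1. The test against EC and Sub subtracts by number, which takes same-numbered arrays as paired.

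The rule for named genes took the 12 largest rises and falls among called genes with a higher mean above the median signal (5.98), the 4 largest differences from EC and Sub in each direction, and up to 4 called members of each of 37 lists, with uncharacterised loci passed over. Further list members and markers are given beside them. The comparison and lists were chosen with earlier results of these data known. The tests were checked on artificial data with known changes. In DG, 41% of changes of 0.5 and 96% of changes of 1 on the log2 scale were called. For the difference from EC and Sub these shares were 19% and 92%, so many changes near 0.5 would not be called. Alternatives were the values as deposited, median centring, the mean of all probe sets, a signal filter, a trended robust prior, the GAPDH ratio as a covariate, the 8 arrays alone, a replicate block and leaving out each array. Chosen after seeing the data were the 3'/5' ratios of the other DG ages and the fits within EC and Sub.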

Additional observations from a re-analysis of the deposited data

Results flagged for a closer look

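Of 172 sets of 4 arrays (each named gene at each of the 2 ages), 13 had 1 array whose gap to the others, as a share of the whole range, exceeded Dixon's critical value for 4 samples, which about 1 in 20 sets do by chance. In adults ARGLU1 was high in array 1 (8.89, others 8.57 to 8.62), as was FZD7 (9.22, others 8.44 to 8.57), whereas LAPTM5 (7.97) and PPP3CC (5.64) were low there. Array 2 was low for NCAN (9.06) and SMAD3 (7.79). Adult array 4 was low for SPP1 (8.21, others 8.51 to 8.54), CTHRC1 (6.71), PTN (8.87, others 9.45 to 9.53) and GRM8 (4.84). At 6 months array 10 was low for NNAT (9.72) and high for COL3A1 (7.30, others 5.61 to 5.85), and array 11 was high for OAS1 (5.84).

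For 37 of the 86 named genes the change from 6 months to adulthood in DG differed from the mean change in EC and Sub, by the limma test of the difference itself. Over all genes tested the share was 2.72%. The genes were named for large DG changes, large differences or calls in DG, which in itself raises their share. Among the genes of young neurons the differences were -1.73 for SOX11, -0.95 for SOX4, -0.97 for MARCKSL1, -0.80 for ST8SIA2 and -0.91 for NNAT (adjusted p 0.000283 to 0.0263). The other large falls gave -0.87 for CTHRC1, -1.25 for PTN, -1.06 for LYPD1 and -1.38 for MRAP2. The large rises gave 1.56 for HHATL, 1.31 for MAB21L2, 1.26 for EFNA5, 0.86 for PTER and 1.30 for ADGRG2.

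For genes called through the difference alone the values were 1.33 for PENK, -3.55 for MALAT1, -1.56 for CDC42BPA and -1.49 for ST18. Synaptic and channel genes gave 0.70 for RIMS2, -0.49 for DLG4, 0.99 for KCNIP4, 0.73 for KCNJ9, 0.91 for FOSL2 and 0.60 for PVALB. Glial and matrix genes gave -0.56 for CSPG5, -0.72 for BCAN, -1.09 for AQP4 (whose changes in EC and Sub, 0.49 and 0.42, were not called) and -0.56 for LAPTM5. The differences were -0.39 for DRD2, -0.52 for BOK, -0.65 for TCF4, -0.57 for RPS19, -0.56 for RPL38 and -0.56 for CFB. In the signalling lists they were 0.47 for SMAD3, -1.04 for WNT5A and 0.63 for FZD7. All of these subtract arrays by a shared number that the labels do not call an animal.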

How the results depend on the processing

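The 837 calls between 6 months and adulthood became 5 with the GAPDH ratio as a covariate and ranged from 495 to 897 when 1 array was left out. The other settings gave 597 to 978 calls, of which 597 came with the number as a replicate block across DG, EC and Sub (consensus correlation 0.0626). The labels do not call these numbers animals. That setting fits the DG, EC and Sub arrays together, so its estimate of the spread is also shared across these regions. The part of the block and of the shared spread in the lost calls was not tested. In the values as deposited 790 of the 837 genes were called again. From 6 months to 1 year the 16 calls became 10 among genes above the median signal, 9 with a trended robust prior, 8 with the 8 arrays compared alone, 6 with a replicate block and 0 in limma with the covariate (1308 at an unadjusted p under 0.05), with 5 to 14 when 1 array was left out. From 1 year to adulthood the 42 calls became 24 with the covariate and 19 with the 8 arrays alone, with 18 to 105 when 1 array was left out. The 537 differences from EC and Sub became 1042 with the covariate, 144 against EC alone and 321 with no replicate block, with 161 to 486 when 1 number was left out. The cause was not tested. Both 3'/5' ratios kept their direction, sign and p as deposited.

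Of the 82 named genes called between 6 months and adulthood, all kept their direction in every setting that tested them, except RPL38, which turned to 0.75 with the mean of all probe sets. That setting ended the calls of 28 others, the replicate block 28 (HNRNPH1, COL3A1, VAMP1 and GABBR1 among them, adjusted p 0.0708, 0.0584, 0.0711 and 0.271), the 8 arrays alone 17 and the covariate 77. PLXNB1, GRM8, KCNJ9, KCNK1, ERMN, AQP4, CX3CR1, MAF, RPS19 and LEF1 were among those lost with the mean of all probe sets. The values as deposited ended those of KCNK1, FOSB, FN1 and RPS19. Signal over background was not analysed here.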

Other observations

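The genes and families here were chosen after their values were seen. Over all genes tested, 1.54% were called higher in adults and 2.7% lower. Of 4 neurofilament genes, which encode intermediate filaments of axons, 2 rose: NEFL from 9.84 ± 0.25 (SD, n = 4) at 6 months to 10.7 ± 0.16 in adults (change 0.84, limma adjusted p = 0.00653) and NEFH from 6.82 ± 0.20 to 7.73 ± 0.26 (0.91, adjusted p = 0.00764). NEFM (0.43, adjusted p = 0.256) and INA (0.22, adjusted p = 0.19) were not called. Of 5 thyroid hormone receptors and deiodinases, the receptor THRB rose by 1.01 (6.48 ± 0.07 to 7.49 ± 0.23, adjusted p = 0.000808) and DIO2, the enzyme that activates the hormone, fell by 0.87 (adjusted p = 0.00261), while the receptor THRA (0.02), DIO1 (0.05) and DIO3 (-0.13) were not called (adjusted p 0.959, 0.812 and 0.495).

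Of 12 measured carbonyl and quinone reductases of the AKR1, CBR and NQO families 5 rose and 0 fell (limma), beside 1.54% of all genes higher and 2.7% lower. AKR1C1 rose by 1.03 (8.04 ± 0.27 to 9.07 ± 0.30, adjusted p = 0.00185), AKR1C2 by 0.82, AKR1C4 by 0.41, NQO1 by 0.73 and CBR3 by 0.74 (adjusted p 0.00605, 0.0258, 0.00628 and 0.0264). The 7 others, such as CBR1 (-0.34, adjusted p = 0.168), were not called. AKR1C genes are near-identical copies that a human probe set may not separate. Of other genes induced by oxidative stress, TXNRD1 (0.14), GCLM (0.21), HMOX1 (-0.11) and SRXN1 (0.18) were not called (adjusted p 0.576, 0.376, 0.649 and 0.223). Of 21 cadherins, CDH12 and CDH18 rose by 0.73 and 0.80, CDH15 and CDH23 fell by 0.37 and 0.29, and 17 were not called. Of 44 protocadherins, PCDH7 and PCDH18 rose by 0.68 and 0.89, PCDHA10 fell by 0.37, and 41 were not called (adjusted p of the 7 calls 0.00596 to 0.0344).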
